A study of Mus musculus with 8 samples.

Results

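Apelin signalling runs through a single G protein-coupled receptor, Aplnr (also called APJ), and a pair of secreted peptide ligands, apelin (Apln) and Elabela or Toddler (Apela). All probe sets annotated to exactly 1 of these 3 genes were taken, which gave 5 of the 45037 non-control probe sets and 3 of the 18193 named genes. The genes were chosen on the measured tissue difference of Apela, which had rank 3 among all genes by the size of the difference towards the aorta. Apln and Aplnr joined it as its partners and not for their own values. The values of Apela in this contrast are therefore a description without a test, and those of Apln and Aplnr are tested.

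The ductus arteriosus links the pulmonary artery to the aorta before birth and closes afterwards. Its RNA was set against that of the aorta, with 4 arrays per vessel, all from untreated fetuses on gestational day 19. The labels give CD88 as the strain of both tissues and call the mice wild type. Each array held the pooled vessel segments of up to 10 pups of a single dam, so a replicate is a litter pool and not an animal. Tfap2b, a transcription factor gene of ductus smooth muscle, averaged 7.59 ± 0.0934 over the ductus arrays and 2.54 ± 0.277 over the aorta arrays (log2 mean ± SD, n = 4 each), so the arrays follow their tissue labels in this gene. The labels name no batch or scan date.

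In the textbook account, apelin and Apela are cut from longer precursors, leave the cell and bind the same receptor. Aplnr lies mainly on endothelial cells, in embryos chiefly on those of veins and growing vessels, and its activation inhibits adenylate cyclase and recruits arrestins. Apelin is made by the endothelial tip cells of sprouting vessels and is induced by low oxygen. Apela is made early in development, and zebrafish that lack it or the receptor form little or no heart.

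The start regions of both ligand genes are shown. A start region of Aplnr was not used here. They are RefSeq windows of 300 bases on GRCm38.p6, both on the minus strand and printed in the direction of transcription, at chr8:65037287-65037586 for Apela and chrX:48034804-48035103 for Apln. Capitals mark matches to 6 motifs, searched on both strands, with no overlapping matches here. These were the TATA box (TATAAA), the CCAAT box, the hypoxia-response cores ACGTG and GCGTG, the SOX factor core ACAAT and the GATA factor motif GATAAG.
Apela: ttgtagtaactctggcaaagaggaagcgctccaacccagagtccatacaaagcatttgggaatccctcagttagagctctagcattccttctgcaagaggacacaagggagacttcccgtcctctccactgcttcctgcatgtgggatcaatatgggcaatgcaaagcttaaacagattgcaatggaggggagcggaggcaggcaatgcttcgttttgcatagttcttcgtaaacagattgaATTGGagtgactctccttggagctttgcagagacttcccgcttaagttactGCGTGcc
Apln: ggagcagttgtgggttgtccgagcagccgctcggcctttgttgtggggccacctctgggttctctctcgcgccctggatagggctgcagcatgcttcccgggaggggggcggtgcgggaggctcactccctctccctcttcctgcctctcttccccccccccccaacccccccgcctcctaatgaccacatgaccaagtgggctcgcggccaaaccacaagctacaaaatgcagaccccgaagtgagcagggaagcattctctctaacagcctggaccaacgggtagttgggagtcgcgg
The Apela window holds 1 CCAAT match, on the opposite strand, and 1 GCGTG match. Of the 32851 promoter windows in the RefSeq table, 37.4% hold CCAAT and 32.4% GCGTG on either strand. None of the 6 motifs is in the letters of the Apln window. ACGTG is in 19.6% of windows, TATAAA in 13.6%, ACAAT in 31.02% and GATAAG in 7.44%. The windows differ in base composition: Apela has 49% G and C and 7 CpG dinucleotides, Apln 64% and 15. These matches describe the letters only, and binding was not measured.

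Apela was lower in the ductus on every array. Probe set 1436287_at read 5.16, 5.40, 5.02 and 5.41 on ductus replicates 1 to 4, against 9.05, 8.31, 7.83 and 8.51 on aorta replicates 1 to 4 (log2 expression). The tissues did not overlap, and the lowest aorta array stood 2.42 log2 units (5.35-fold) above the highest ductus array. The means were 5.25 ± 0.189 for ductus pools and 8.42 ± 0.505 for aorta pools (SD, n = 4 each), a log2 difference of -3.18 ± 0.231 (SE), which is 9.04-fold less in the ductus. The ductus levels still lay above the array medians (4.36 to 4.42). Pools of whole vessel cannot tell fewer cells that make a transcript from less of it per cell.

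The other Apela probe set, 1442571_at, showed the same direction at a much lower reading. It read 2.37, 2.62, 2.51 and 2.72 on the ductus arrays, against 3.13, 2.94, 2.74 and 2.99 on the aorta arrays. The tissues again did not overlap, but by a small margin, and the difference was log2 -0.39 ± 0.126 (SE). All 4 ductus readings lay below the first quartile of their arrays (2.74 to 2.84), so they are not shown to be above background and the fold can be compressed. With the mean of both probe sets in place of the stronger, the Apela difference was -1.78.

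**Figure D1:**
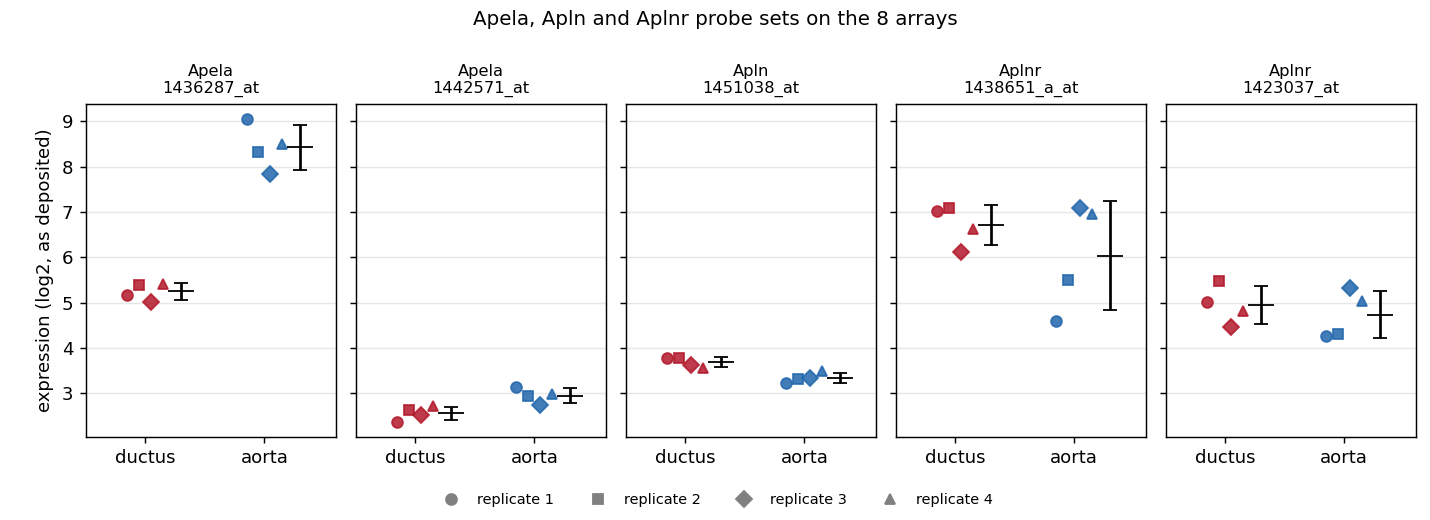
Expression (log2, as deposited) of the 5 probe sets of Apela, Apln and Aplnr on 4 ductus arrays (red, left) and 4 aorta arrays (blue, right), with black bars for the mean ± SD and a marker shape for each replicate. Apela 1436287_at sits between 5.02 and 5.41 in the ductus and between 7.83 and 9.05 in the aorta, while Aplnr 1438651_a_at overlaps and runs from 4.59 to 7.09 in the aorta.

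Apln, the other ligand, leaned the opposite way by a small amount and did not pass the test. Its only probe set, 1451038_at, read 3.77, 3.78, 3.62 and 3.56 in the ductus, against 3.22, 3.32, 3.33 and 3.49 in the aorta. All 4 ductus readings were above all 4 aorta readings, as was true in one direction or the other for 11.3% of all genes. The means were 3.68 ± 0.106 for ductus pools and 3.34 ± 0.113 for aorta pools (SD, n = 4 each). The difference was log2 0.34 ± 0.106 (SE; 1.27-fold, 95% interval of the single gene 0.10 to 0.58), with an adjusted p = 0.131 in limma. An exact permutation test of the single gene (two-sided) gave p = 0.0286, the smallest that 4 against 4 arrays allow. Both means lie between the first quartile (2.74 to 2.86) and the median of the arrays, so the low reading limits what a fold can show.

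The receptor, Aplnr, did not differ beyond the spread of the aorta arrays. Its stronger probe set, 1438651_a_at, read 7.03, 7.09, 6.12 and 6.63 in the ductus, against 4.59, 5.50, 7.09 and 6.96 in the aorta. Aorta replicates 3 and 4 were level with the highest ductus arrays, and aorta replicates 1 and 2 were lower than every ductus array. The means were 6.71 ± 0.447 for ductus pools and 6.03 ± 1.21 for aorta pools (SD, n = 4 each). The difference was log2 0.68 ± 0.519 (SE; 95% interval of the single gene -0.49 to 1.85), and it did not pass (adjusted p = 0.591). It was 0.20 without aorta replicate 1 and 1.03 without aorta replicate 3, so aorta replicate 1 carries much of it. An interval of that width does not show a like level in both vessels.

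The weaker Aplnr probe set, 1423037_at, ordered the arrays in the same way within each vessel. It read 5.02, 5.48, 4.46 and 4.82 in the ductus, against 4.27, 4.31, 5.31 and 5.03 in the aorta. Replicate 2 was highest and replicate 3 lowest in the ductus, and replicate 3 was highest and replicate 1 lowest in the aorta, with both probe sets. Its difference was log2 0.22 ± 0.281 (SE; adjusted p = 0.812 over all probe sets).

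Of the genes tested, 3.86% were called at an adjusted p under 0.05, with 1.8% of all genes higher in the ductus and 2.06% of all genes higher in the aorta. Neither Apln nor Aplnr was among them. The calls in each gene list below are to be read beside these shares. The number higher in the aorta, 374, fell to 239 without ductus replicate 1, 230 without ductus replicate 2, 214 without ductus replicate 4 and 209 without aorta replicate 2.

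The spread of Aplnr between aorta pools was among the largest in the table. Its range over the 4 aorta arrays was 2.50 log2 units, a 5.66-fold span, against 0.97 units (1.96-fold) over the 4 ductus arrays. Only 56 of 18193 genes (0.308%) had a larger SD over the aorta arrays, and 8.35% had a larger SD over the ductus arrays. For Apela 6.54% of genes had a larger aorta SD, and for Apln 83.5%.

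Adipocyte genes moved with Aplnr from array to array. The list held 6 measured genes: Adipoq (the hormone adiponectin), Fabp4 (a fatty acid carrier), Pparg and Cebpa (transcription factors of fat cell formation), Cidea (a lipid droplet protein) and Ucp1 (the uncoupling protein of brown fat). Their mean log2 level was 7.14, 7.45, 6.21 and 6.33 on ductus replicates 1 to 4, against 5.35, 6.09, 8.64 and 7.50 on aorta replicates 1 to 4. The order of the arrays in this mean was that of Aplnr in both vessels, highest on replicate 2 and lowest on replicate 3 of the ductus, and highest on replicate 3 and lowest on replicate 1 of the aorta. The means of all pathway and cell type lists were ordered in this way, so a match of a single list can arise by chance.

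Single genes of the list followed the same course. Adipoq read 7.53, 8.25, 5.84 and 5.71 in the ductus, against 2.76, 5.11, 9.16 and 8.85 in the aorta. Pparg read 5.76, 6.59, 4.41 and 5.23 in the ductus, against 3.39, 3.98, 7.15 and 6.30 in the aorta. In the aorta, 4 of the 6 genes had exactly the array order of Aplnr, as did 3.9% of all other genes, and in the ductus 2 of 6 did, against 2.95% of all other genes. Ucp1 stayed between 3.11 and 3.72 on all arrays but aorta replicate 3, where it read 6.07. By limma 0 of the 6 genes were called between the tissues, and 0 were at an unadjusted p under 0.05. Genes of a list can rise and fall together, so the shared orders are not independent matches. These values share the arrays with Aplnr, and the part of fat cells in its spread was not tested.

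The genes whose array profiles lay nearest to that of Aplnr were found by the root mean square (RMS) distance between log2 values, each gene centred on its own mean. Over all 8 arrays these were Car3, a carbonic anhydrase abundant in fat and muscle (RMS distance 0.344 log2 units), Slc26a7, an anion transporter (0.349), Mrap, an accessory protein of melanocortin receptors (0.407), Rad51c, a DNA repair gene (0.412), and Tmem255a (0.438). Car3 read 11.4, 11.4, 10.4 and 10.9 in the ductus, against 8.83, 9.25, 11.9 and 11.9 in the aorta. It was also the nearest over the 4 ductus arrays alone (0.0437), followed by Esrra, Nodal, Sost and Ddhd1 (0.0564 to 0.074).

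A search over the 4 aorta arrays alone was added after the values were seen, since Aplnr varied most there. Among 848 genes with at least 0.5 times its aorta range, the nearest were Mrap (RMS distance 0.102 log2 units), Pck1, an enzyme of gluconeogenesis and of glycerol synthesis in fat (0.140), and Lipe, hormone-sensitive lipase (0.187). Mmd2 (0.200) and Btnl9 (0.246) came next. Lipe read 3.14, 4.17, 6.07 and 5.94 on aorta replicates 1 to 4, and Pck1 read 2.65, 3.17, 4.96 and 4.89.

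Aplnr is usually counted among endothelial genes, and the mean of the endothelial list ordered the arrays differently from it in both vessels. Over 20 genes the mean log2 level was 7.43, 7.23, 7.51 and 7.26 in the ductus, against 7.90, 7.999, 7.63 and 8.03 in the aorta. This mean ranged over only 0.27 log2 units in the ductus and 0.40 in the aorta, so its order rests on close values. None of the 20 had the array order of Aplnr in either vessel. Of all other genes 3.9% had it in the aorta and 2.95% in the ductus, so this count says little. Their median difference was log2 -0.64 (all genes, -0.03). By limma 17 of the 20 were at an unadjusted p under 0.05, as were 2935 of all 18193 genes. A called excess was found for 0 genes in ductus pools (all genes, 1.8%) and for 4 in aorta pools (all genes, 2.06%). They were the junction genes Pecam1 (1.54-fold, adjusted p = 0.0242) and Cldn5 (2.48-fold, adjusted p = 0.0154), the angiopoietin receptor Tek (1.65-fold, adjusted p = 0.00906) and Ecscr (1.73-fold, adjusted p = 0.00561). The differences of Apln and Aplnr had the opposite sign to this list's median, without passing.

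Markers of the endothelial subtypes in which the pathway is best known were mixed. Of 8 tip cell genes, 1 was called with more in ductus pools, the chemokine receptor Cxcr4 (2.42-fold, adjusted p = 0.00262), and 2 with more in aorta pools, the basement membrane gene Nid2 (2.28-fold, adjusted p = 0.000256) and the channel subunit Kcne3 (2.05-fold, adjusted p = 0.0386). Esm1 and Dll4, which define tip cells most closely, were near the first quartile, with means of 2.87 and 3.05 over ductus arrays and 2.57 and 3.07 over aorta arrays. Of 3 venous genes, the semaphorin and VEGF co-receptor Nrp2 was higher in ductus pools (1.81-fold, limma adjusted p = 0.0249), while Nr2f2 (log2 0.49 ± 0.214 (SE), adjusted p = 0.303) and Ephb4 (log2 -0.42 ± 0.131 (SE), adjusted p = 0.127) did not pass. Among 9 arterial genes, 0 calls went to the ductus and 1 to the aorta.

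In the aorta, Apela moved with mesothelial genes, the markers of the cell layer that lines the body cavities. All 12 measured genes of that list had lower means in the ductus, with a median of log2 -1.53. Of the 12, 8 were called higher in the aorta, as were 2.06% of all genes. The list mean was 7.11, 6.56, 7.06 and 6.52 on ductus replicates 1 to 4, against 8.94, 8.16, 7.62 and 8.42 on aorta replicates 1 to 4. Within the aorta 9 of the 12 genes had exactly the array order of Apela, as did 4.49% of all other genes. Genes of a list can rise and fall together, so these matches are not independent. In 11 of the 12 the highest and lowest values were on the same arrays as for Apela, replicates 1 and 3. The keratin Krt19, for example, read 10.1, 9.28, 8.81 and 9.58 on the aorta arrays. Of all pathway and cell type lists compared, the mean of the 3 venous genes also had the aorta order of Apela. Its range there was 0.16 log2 units, against 1.32 for the mesothelial mean.

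In the ductus this link was not seen. Apela ranged over 0.39 log2 units on the ductus arrays, against 1.22 on the aorta arrays. Its ductus order therefore rests on close values, and its absence elsewhere says little. None of the 12 genes had the array order of Apela in the ductus. The mean of 5 neuron and Schwann cell genes did, over a ductus range of 0.20 log2 units. The arrays with the higher mesothelial mean, replicates 1 and 3, were those with the lower Apela values. The vessels came closest in the mesothelial mean on ductus replicate 1 and aorta replicate 3, where it was 7.11 and 7.62, a difference of -0.51. Apela on the same arrays was at 5.16 and 7.83, a difference of -2.66. The part of mesothelial cells in the Apela difference was not tested.

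**Figure D2:**
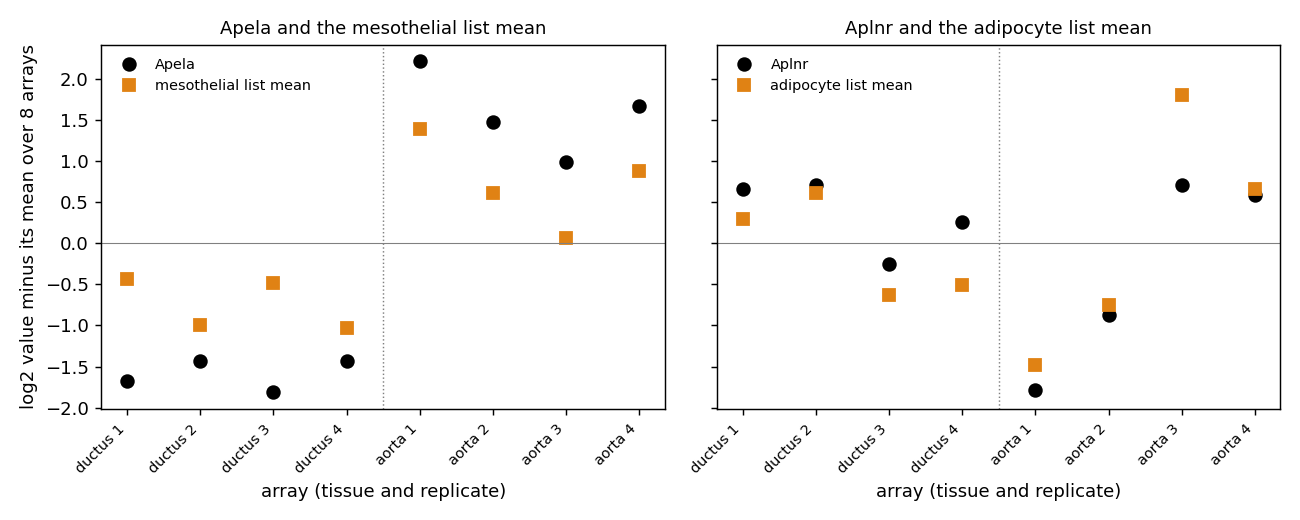
Log2 values minus their own mean over the 8 arrays for Apela and the mean of 12 mesothelial genes (left) and for Aplnr and the mean of 6 adipocyte genes (right), with the ductus arrays left of the dotted line and the aorta arrays right of it. Apela and the mesothelial mean share their order in the aorta and not in the ductus, and Aplnr and the adipocyte mean are both lowest on aorta replicates 1 and 2.

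The genes most like Apela in array profile differ with the arrays used. Over all 8 arrays, where the tissue difference dominates, the nearest were Slurp1, a secreted Ly6-family protein (RMS distance 0.408 log2 units), Calcb, a calcitonin gene-related peptide (0.448), Cacna2d3, a calcium channel subunit (0.452), Clic3 (0.518) and the polarity gene Pard6b (0.531). Slurp1 read 5.11, 4.22, 5.06 and 4.70 in the ductus, against 8.16, 8.06, 7.38 and 7.64 in the aorta. Over the 4 aorta arrays alone, among 6000 genes with at least 0.5 times its range there, they were Rab7b, a small GTPase of endosomes (0.0326), Ahr, the aryl hydrocarbon receptor (0.0395), Krt19 (0.0487), the glutathione transferase Gsta4 (0.049) and the zinc transporter Slc39a8 (0.0504). These neighbours rest on 4 arrays and were not tested.

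Around the receptor, 5 lists of pathway genes were taken with 44 genes, 37 of them named in the annotation used. These 37 had 4 calls towards the ductus (all genes, 1.8%) and 2 towards the aorta (all genes, 2.06%). Their median difference was log2 -0.07, beside -0.03 for all genes. The count was 3 without ductus replicate 2, ductus replicate 4 or aorta replicate 2. Prkaa1, Agtr1b and Egln3 were called on leaving out any of the 8 arrays, whereas Mme passed in 2 of the 8 runs, Agtr1a in 3 and Ndrg1 in 5.

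Among the peptidases, Mme (neprilysin, which cleaves apelin) averaged 4.47 ± 0.0994 over ductus arrays and 3.81 ± 0.223 over aorta arrays, a 1.59-fold excess in the ductus (log2 mean ± SD, n = 4 each; adjusted p = 0.0215). Furin, a convertase that cuts the apelin precursor, averaged 11.2 ± 0.0431 over ductus arrays and 11.1 ± 0.136 over aorta arrays (SD, n = 4 each; limma adjusted p = 0.721). Klkb1, plasma kallikrein, did not pass either (limma adjusted p = 0.83).

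The coupling proteins gave no call: limma called 0 of 9, with 2 at an unadjusted p under 0.05, as were 2935 of all 18193 genes. Gna13, a G protein alpha subunit used by the receptor in endothelium, differed by log2 0.28 ± 0.118 (SE; adjusted p = 0.286). The inhibitory subunit Gnai2 differed by log2 0.15 ± 0.215 (SE; adjusted p = 0.803) and the arrestin Arrb1 by log2 -0.38 ± 0.216 (SE; adjusted p = 0.439).

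Among 9 effector genes, 1 call went to the ductus and 0 to the aorta, and the list's median was log2 -0.34. By limma 6 of the 9 were at an unadjusted p under 0.05, as were 2935 of all 18193 genes. Prkaa1, a catalytic subunit of AMP-activated kinase, averaged 6.91 ± 0.129 over ductus arrays and 6.02 ± 0.171 over aorta arrays, a 1.86-fold excess in the ductus (SD, n = 4 each; limma adjusted p = 0.00311). The endothelial genes at the end of the pathway had lower ductus means without passing. Nos3, nitric oxide synthase, averaged 4.70 ± 0.287 over ductus arrays and 5.47 ± 0.402 over aorta arrays (limma adjusted p = 0.0910). The flow-responsive factor Klf2 averaged 5.32 ± 0.138 over ductus arrays and 5.82 ± 0.406 over aorta arrays (limma adjusted p = 0.227). The histone deacetylase Hdac5, whose export from the nucleus apelin drives in endothelial cells, differed by log2 -0.79 ± 0.192 (SE; adjusted p = 0.0572). The other deacetylase of the list, Hdac4, went the other way without passing (log2 0.36 ± 0.169 (SE), limma adjusted p = 0.330).

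The angiotensin receptors, to which Aplnr is related in sequence, went different ways. Agtr1a averaged 6.02 ± 0.274 over ductus arrays and 6.85 ± 0.214 over aorta arrays, a 1.78-fold excess in the aorta (SD, n = 4 each; limma adjusted p = 0.0222). Agtr1b was higher in the ductus (3.68 ± 0.180 over ductus arrays, 2.68 ± 0.304 over aorta arrays; SD, n = 4 each; limma adjusted p = 0.00906), and its aorta mean lies below every first quartile, so no fold is given. Agtr2 averaged 9.44 ± 0.253 over ductus arrays and 8.69 ± 0.332 over aorta arrays and did not pass (limma adjusted p = 0.0617).

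Hypoxia-induced genes, listed because Apln is one, had 1 call in each direction among 9. Egln3, an oxygen-dependent prolyl hydroxylase, had a 3.91-fold excess in the ductus (limma adjusted p = 0.000171), and Ndrg1 a 1.61-fold excess in the aorta (limma adjusted p = 0.0167). Vegfa (log2 0.36 ± 0.170 (SE), adjusted p = 0.338), Adm (log2 -0.09 ± 0.142 (SE), adjusted p = 0.831) and Slc2a1 (log2 -0.13 ± 0.173 (SE), adjusted p = 0.788) did not pass.

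**Figure D3:**
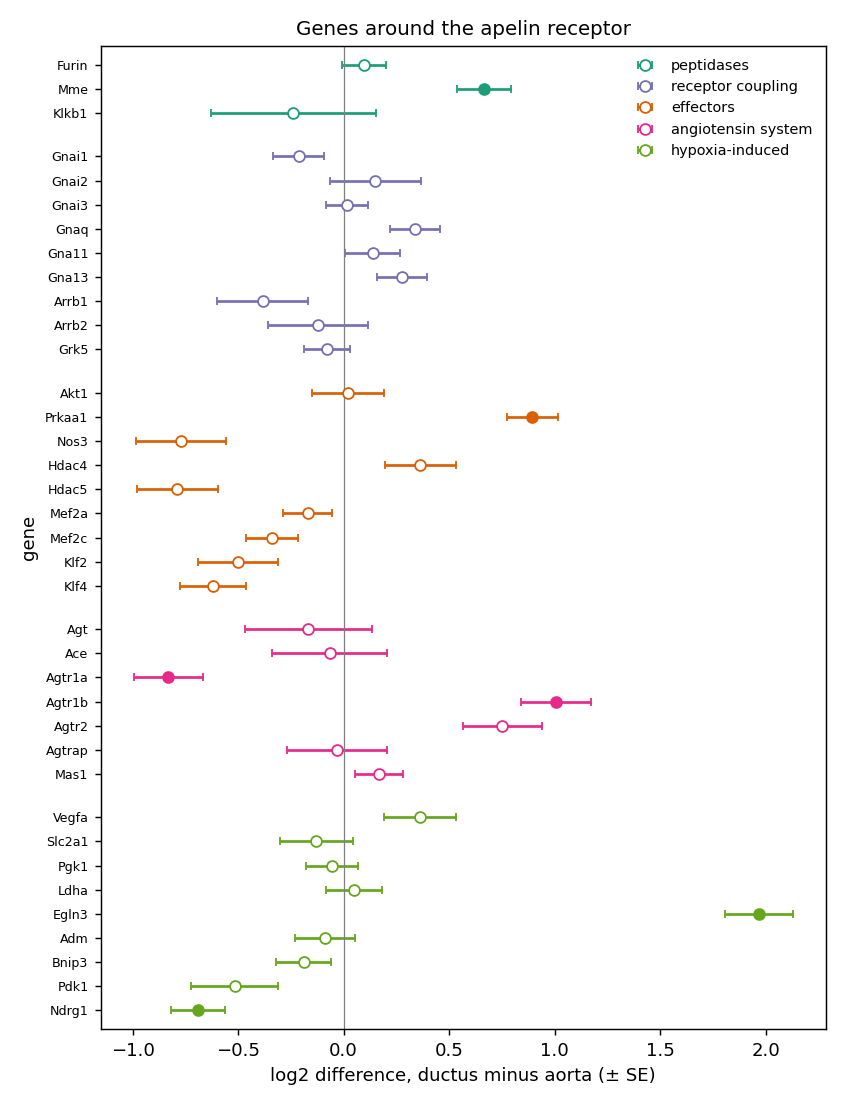
Log2 difference, ductus minus aorta, with its standard error for the 37 measured genes of 5 pathway lists, where filled points passed an adjusted p of 0.05 and open points did not. Egln3 lies at 1.97, and 35 genes lie within 1 log2 unit of 0. The point of Agtr1b rests on an aorta mean below every first quartile of the arrays.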

How the data were processed

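Total RNA of 4 ductus and 4 aorta pools was biotin-labelled and hybridised to Affymetrix mouse arrays, per the labels' protocols. The deposited values are log2 expression per probe set. Partek 6.6 and RMA are named per the submitters' processing notes; their settings were not given in the labels. Of 45101 probe sets, 64 controls were left out and 34945 carried exactly 1 gene symbol, 34741 of them updated through RefSeq gene IDs. For a gene with several probe sets the one of highest mean was used, and low values were not filtered. Tissues were compared, ductus minus aorta, with limma 3.58.1 (R 4.3.3; linear model with moderated variances, two-sided, Benjamini-Hochberg over 18193 genes, or 45037 probe sets), checked on simulated data. No detection call was used, and levels of different probe sets are not compared. Precision is limited by the number of arrays.

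The members, gene lists and tests were chosen with earlier results of these data known. Genes named were all member probe sets, every called pathway gene, preset pathway genes (Furin, Mme, Agtr1a, Agtr2, Nos3, Klf2, Gna13), up to 3 genes per cell type list by adjusted p, and the 5 nearest profiles. Not each is printed, an item of the preset genes is not reported here, and other genes were named after their values were seen. Adjusted p-values are limma's. Replicate numbers were not used as pairs in the main fit. Deviations of same-numbered arrays from their tissue means correlated at -0.068, -0.148, -0.191 and -0.227. These correlations cannot show whether same-numbered pools came from the same litters.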

Additional observations from a re-analysis of the deposited data

Results flagged for a closer look

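No value of Apela, Apln or Aplnr stood apart within its tissue. Over these and the other genes considered for naming, 10 of 166 groups, each a gene or member probe set in 1 tissue, had 1 array far from the other 3, where chance flags about 1 in 20. On aorta replicate 3, Ucp1 read 6.07 (3.11 to 3.32 on the others), Clic3 5.05 (6.495 to 6.79) and the neuronal tubulin Tubb3 3.60 (2.98 to 3.08). On aorta replicate 4, the T cell gene Cd3d read 7.26 (4.80 to 5.18 on the others), the airway gene Scgb1a1 3.96 (3.05 to 3.13) and the fast muscle troponin Tnnt3 5.50 (4.82 to 4.93). On aorta replicate 1, Pdpn read 11.4 (10.6 to 10.7 on the others). On ductus replicate 3, Tnnt3 read 7.71 (6.06 to 6.19 on the others) and the surfactant gene Sftpa1 4.41 (2.78 to 3.00), and on ductus replicate 1 the catecholamine enzyme Th read 2.87 (2.48 to 2.54). The other Th readings lay below the first quartiles of their arrays. Those of Tubb3 and Sftpa1 lay near the first quartiles, so these low readings are not shown to be above background.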

How the results depend on the processing

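Over 17 alternatives the Apela difference ran from -3.38 to -1.78. Apela was chosen for its difference and its tissues do not overlap, so leaving out 1 array could not turn its direction. Averaging its probe sets, with differences of -3.18 and -0.39, gave -1.78. Apln stayed positive (0.30 to 0.39) and failed limma's threshold in each of its limma alternatives (adjusted p 0.105 to 0.331). The exact permutation test, without adjustment over genes, put its difference of 0.34 at p = 0.0286. Aplnr stayed positive (0.20 to 1.03; adjusted p 0.365 to 0.865). Apln lay below both filters on low values and has no value under them. In this balanced design a block of replicate numbers leaves the differences of the 5 single probe sets unchanged. The Apela and Apln probe sets do not overlap between tissues, so only those of Aplnr could turn without 1 array. Both Aplnr probe sets stayed positive, the weaker at 0.04 without ductus replicate 2. With the replicate number as a block (replicate block), Apln was at 0.34 (adjusted p = 0.331) and Aplnr at 0.68 (adjusted p = 0.683), while 208 genes were called higher in the ductus, 195 in the aorta and 3 in the pathway lists. Leaving out 1 array gave 232 to 292 genes higher in the ductus, 209 to 420 higher in the aorta and 3 to 9 pathway genes; the cause was not tested.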
